A study of Mus musculus with 18 samples.

Results

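RNA from whole colons of male C57BL/6 mice was sequenced in bulk, and 2 groups of DSS-treated mice that differed in the bacterial strain they were gavaged with were set against each other. The COM group (n = 4 libraries) received Lactobacillus plantarum ZJ316-COM and the KO group (n = 4 libraries) received ZJ316-KO. Both groups drank 2.5% dextran sulfate sodium (DSS) for 7 days and were then gavaged for 5 weeks with 200 µL of bacterial suspension per 10 g of body weight. Values of 3 further groups stand beside them: the parent strain ZJ316 after DSS (WT, n = 4), PBS after DSS (DSS, n = 3) and water with no DSS (Control, n = 3). The mice of all groups are given as wild type, so WT, KO and COM name bacteria and not mice. The labels do not say what was removed in KO or what COM stands for, whether each library is a single animal, or at what time of day the colons were taken. The p-values therefore measure the spread between libraries, which may be technical.

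The comparison covers every gene with at least 1 FPKM, a level scaled to transcript length and to sequenced fragments, in at least 3 of the 8 COM and KO libraries. This held for 12877 of the 18349 genes in the deposited table (70.2%), and 12020 of them had at least 1 FPKM in all 8 libraries. Just inside the threshold lay 142 genes with exactly 3 such libraries and a median level of 0.939 FPKM, and just outside it 197 genes with exactly 2 and a median of 0.865 FPKM. The other 5472 genes were not tested, the 197 among them.

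DSS is a sulfated polysaccharide that injures the lining of the colon when it is drunk, and the lining regrows from the crypts once it is withdrawn. Lactobacillus plantarum is a lactic acid bacterium of fermented food that is widely used as a probiotic. The colonic lining answers bacteria and injury through mucus and antimicrobial proteins from goblet and crypt cells, through chemosensory tuft cells that call in type 2 immune signals, and through interferon-driven antigen presentation.

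Single libraries stood apart within both groups, in the mean log2(FPKM + 1) of marker lists. COM 2 had 5.75 over 28 interferon-induced genes, against 3.63 to 4.13 in the other COM libraries and 3.70 to 3.99 in the KO libraries. COM 1 and COM 2 had 5.63 and 5.67 over conjugation enzymes and carboxylesterases, against 4.78 and 4.91 in COM 3 and COM 4 and 4.94 to 5.06 in KO. KO 2 had 2.60 over 12 Hox genes of the distal gut, whose expression depends on the position in the intestine, against 3.44 to 3.71 in COM and 3.38 to 3.59 in the other KO libraries. The 17 pancreatic acinar genes in no other list summed to 126 to 216 FPKM in COM, with Prss2, Try4, Amy2b and Cuzd1 listed at 0 in every COM library, and to 101 to 208 FPKM in KO apart from KO 3, which had 8493 FPKM. The 23 squamous epithelium genes in the table summed to 82.5 to 503 FPKM in COM, with COM 3 highest, and to 88.6 to 149 FPKM in KO. Adult colon genes were present throughout: absorptive colonocyte markers summed to 5938 FPKM or more and goblet cell markers to 9962 FPKM or more in each of the 8 libraries, without the members they share with other lists.

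Across the 12877 genes, few passed the adjusted threshold between COM and KO, which does not show that the rest were equal. At an adjusted p under 0.05 (limma, Benjamini-Hochberg over all tested genes) 4 genes were called, which is 0.0311% of those tested. Banp, Ints8 and Fxr1 were higher in COM (3 genes, 0.0233%) and Zfp414 was lower (1 gene, 0.00777%). Without adjustment 1410 genes (10.9%) had a p under 0.05, of which 785 (6.1%) were higher in COM and 625 (4.85%) lower. This count was 839 without KO 2 and 1091 to 1513 without any other single library. All 4 COM libraries lay on one side of all 4 KO libraries for 961 genes (7.46%), higher in COM for 526 (4.08%) and lower for 435 (3.38%). The median log2 fold change was 0.006, and its size was under 0.5 for 97.9% of the genes. Its sign was positive for 6696 genes (52.0%). The count of called genes was 0 without COM 2, without KO 2 and without KO 4, and 1 or 2 without any of the other 5 libraries. The split of the calls was 3 higher and 0 lower in COM after rescaling to TPM and 1 higher and 1 lower with quantile normalization.

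**Figure D1:**
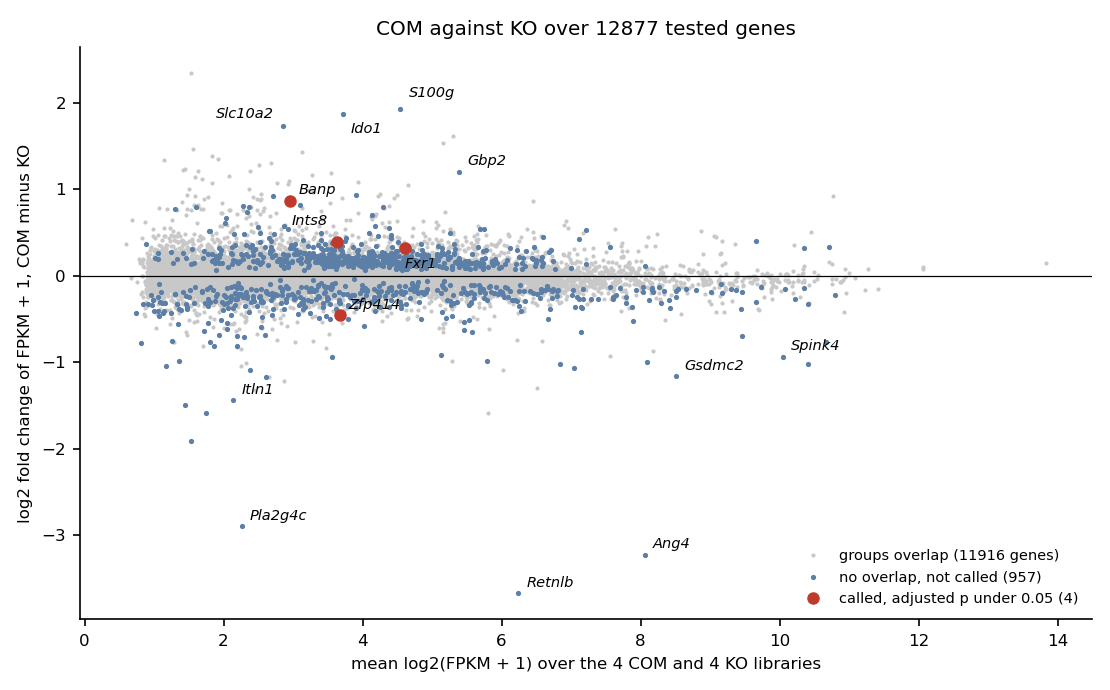
Log2 fold change of FPKM + 1 (COM minus KO, y axis) against mean level over the 8 libraries (x axis) for the 12877 tested genes. Red points are the 4 called genes, blue points are genes whose COM and KO libraries do not overlap, and grey points are the rest; the largest differences, such as Retnlb at -3.67 and Ang4 at -3.23, are not among the called genes.

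Banp had the smallest p of all genes. It encodes a nuclear matrix protein that binds DNA at CGCG elements (gene ID 53325, chromosome 8, 121947972 to 122029260, GRCm38.p6). Its level was 7.78, 10.2, 8.66 and 11.8 FPKM in the COM libraries, against 5.53, 4.52, 4.28 and 4.72 FPKM in the KO libraries. Every COM library lay above every KO library, and the lowest COM value exceeded the highest KO value by more than the whole KO range. Banp rose by 0.87 ± 0.11 (log2, SE) in COM relative to KO (adjusted p = 0.0107, limma). The WT libraries had 7.53 to 8.9 FPKM, the DSS libraries 8.48 to 11.5 and the Control libraries 12.2 to 13.6, so that KO was the lowest group. COM differed from WT by 0.20 ± 0.11 (adjusted p = 0.508) and KO from WT by -0.67 ± 0.11 (adjusted p = 0.0256), and these values share the COM, KO and WT libraries with each other and with the comparison above. Banp passed the test in 5 of the 8 fits that left out 1 library, with adjusted p from 0.00416 to 0.0713; it missed it without COM 2 (0.0611), KO 2 (0.0713) or KO 4 (0.057).

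Ints8 encodes a subunit of the Integrator complex, which cuts nascent RNA at small nuclear RNA genes and near the start of many others (gene ID 72656, chromosome 4, 11199158 to 11254265). It had 13.4, 12.8, 12.5 and 14.3 FPKM in COM, against 8.63, 9.79, 10.9 and 10.1 FPKM in KO. The groups did not overlap, and Ints8 rose by 0.40 ± 0.06 (adjusted p = 0.0476, limma). The WT libraries, at 11.04 to 12.92 FPKM, lay above all of KO and overlapped the lower COM libraries. Ints8 kept an adjusted p under 0.05 in 1 of the 8 fits without a library, that without KO 3.

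Fxr1 encodes an RNA-binding protein related to the fragile X protein (gene ID 14359, chromosome 3, 34020058 to 34069980). Its level was 25.8, 27.5, 25.7 and 26.7 FPKM in COM, against 20.1, 19.5, 21.4 and 22.4 FPKM in KO. It rose by 0.33 ± 0.05 (adjusted p = 0.0476, limma), with tight values in both groups. WT had 24.4 to 27.4, DSS 24.5 to 27.2 and Control 23.5 to 24.3 FPKM, all above the KO libraries. In the 8 fits without a library its adjusted p ran from 0.057 to 0.296, and its fold change from 0.30 to 0.36.

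Zfp414, a zinc finger protein gene (gene ID 328801, chromosome 17, 33629092 to 33631716), was the called gene that was lower. It had 8.82, 9.41, 10.1 and 11.5 FPKM in COM, against 14.1, 14.3, 13.4 and 13.8 FPKM in KO, and fell by 0.45 on the log2 scale (SE 0.07, adjusted p = 0.0313, limma). KO was the highest of the 5 groups, with 10.95 to 11.53 FPKM in WT, 11.7 to 12.3 in DSS and 10.2 to 12.0 in Control. It passed in 1 of the 8 fits that left out a library, that without COM 4.

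**Figure D2:**
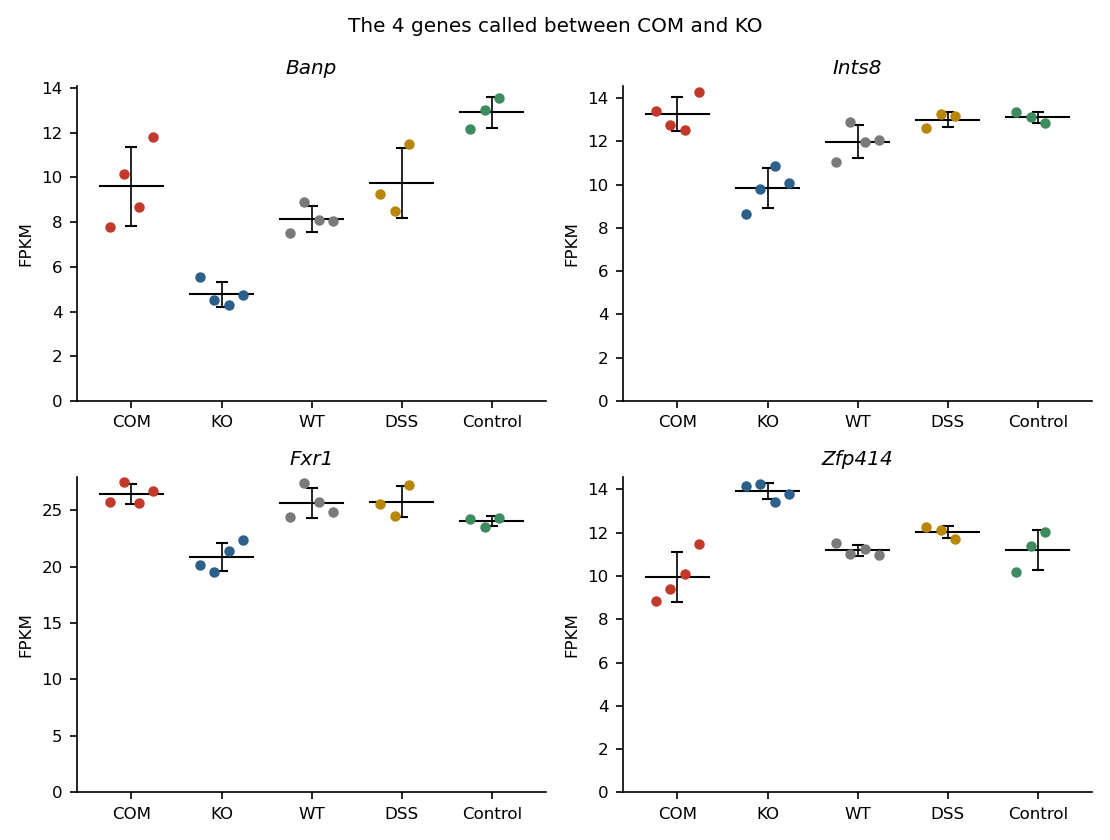
Levels of the 4 called genes in FPKM by library for COM, KO, WT, DSS and Control, with the mean and SD of each group as bars. For Banp, Ints8 and Fxr1 the KO libraries lie below the COM libraries (for Banp 4.28 to 5.53 against 7.78 to 11.8 FPKM in COM), and for Zfp414 above them.

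Because Banp was called, the RefSeq promoters (250 bases before to 50 after each annotated start, GRCm38.p6) were searched for the CGCG element that BANP is known to bind, TCTCG followed directly by its reverse complement. The element reads the same on both strands, and the search was chosen after the values were seen. It occurs in the promoters of 142 of 27025 genes (0.525%) and of 115 of the 10296 tested genes that have a promoter in the table (1.117%). Zfp414 is 1 of them, with the element across its annotated start. Fxr1 has no match in this window, and the promoters of Banp and Ints8 were not analysed here. The windows of Zfp414 and of the 4 genes with the element that are named here for their small p are shown with 15 bases on either side and the element in capitals, from 5′ to 3′ on the gene's strand.
Zfp414 (chr17:33629071-33629110, + strand): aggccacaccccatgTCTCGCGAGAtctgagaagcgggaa
Rbm39 (chr2:156180218-156180257, - strand): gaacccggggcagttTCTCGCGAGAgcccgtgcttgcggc
Uhrf2 (chr19:30030425-30030464, + strand): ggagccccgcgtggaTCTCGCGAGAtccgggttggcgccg
Ncoa4 (chr14:32159844-32159883, + strand): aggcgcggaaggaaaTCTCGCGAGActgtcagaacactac
Edrf1 (chr7:133637630-133637669, + strand): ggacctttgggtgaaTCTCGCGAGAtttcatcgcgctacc
These 5 genes share the core and little of the flanks, and they do not share a direction. Zfp414 fell in COM, whereas the other 4 had higher levels in every COM library than in any KO library without passing the adjusted threshold. Rbm39, a splicing factor gene, had 109 to 122 FPKM in COM against 83.7 to 102 FPKM in KO (0.30 ± 0.06, adjusted p = 0.153, limma). Uhrf2, which encodes a reader of modified DNA, had 26.1 to 28.2 FPKM in COM against 21.8 to 24.2 FPKM in KO. Ncoa4, the ferritin autophagy receptor gene, had 58.0 to 62.2 FPKM in COM against 40.7 to 53.0 FPKM in KO. Edrf1 had 6.19 to 6.4 FPKM in COM against 4.68 to 5.63 FPKM in KO.

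Over all 115 tested genes with the element, 14 did not overlap and were higher in COM and 1, Zfp414, did not overlap and was lower, which makes 13.04% against 7.44% of the 10181 genes without it. The median log2 fold change was 0.034 with the element and 0.005 without it. With the trend on length and GC content taken out (described further on), these medians were -0.001 and -0.007. A match of letters is a description of the promoter and not a measured binding site.

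By the naming rule 8 genes were given in each direction, the 4 called ones and 12 more with the smallest p, none of which overlapped between the groups.
Among those higher in COM, Fnip1, a folliculin partner in AMPK and mTOR signalling, had 8, 7.82, 7.72 and 7.87 FPKM in COM, against 5.93, 5.16, 6.10 and 6.53 FPKM in KO (0.36 ± 0.06, adjusted p = 0.0890, limma). Ehf, an ETS transcription factor gene of epithelia, had 107 to 115 FPKM in COM against 89.4 to 94.5 FPKM in KO. Stxbp3, which acts in vesicle fusion, had 34.4 to 35.6 FPKM in COM against 30.3 to 31.3 FPKM in KO, Lrch3 had 10.4 to 11.5 FPKM in COM against 8.09 to 9.33 FPKM in KO, and the tRNA methyltransferase relative Trmt1l had 21.8 to 23.5 FPKM in COM against 15.4 to 19.6 FPKM in KO. The differences of these genes were small, from 0.18 to 0.36, beside close agreement within the groups.

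Of the genes lower in COM, Srsf5, a splicing factor gene, had 124, 129, 129 and 118 FPKM in COM, against 174, 155, 165 and 153 FPKM in KO (-0.37 ± 0.07, adjusted p = 0.127, limma). Krt18, a keratin of simple epithelia, had 286, 298, 299 and 321 FPKM in COM, against 384, 466, 352 and 370 FPKM in KO (-0.38 ± 0.09, adjusted p = 0.160). In both genes every COM library lay below every KO library, but the other groups differed: for Krt18 WT, DSS and Control lay at 262 to 332 FPKM, with COM, and for Srsf5 the WT libraries lay at 153 to 182 FPKM, with KO. Dpm3, a subunit of the enzyme that makes the mannose donor of glycosylation, had 32.7 to 41.8 FPKM in COM against 49.2 to 60.1 FPKM in KO. C1qtnf6, a secreted protein gene of the C1q and TNF-related family, had 11.6 to 13.1 FPKM in COM against 17.1 to 20.7 FPKM in KO, Gramd4 had 9.41 to 10.8 FPKM in COM against 11.9 to 14.8 FPKM in KO, and Smim6 had 59.6 to 67.3 FPKM in COM against 72.9 to 84.1 FPKM in KO.

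The largest log2 fold changes by size were those of Retnlb and Ang4, genes of the epithelium that were lower in every COM library than in any KO library and did not pass the adjusted threshold. Of the 53 genes with a log2 fold change of 1 or more in size, 18 did not overlap between the groups, 14 lower in COM and 4 higher. Of these 18, 3 had under 1 FPKM in every library of the lower group, so they entered the comparison only through the group where they were high. Those described next were picked from these 18 after their values were seen, save where a gene list holds them. The gene lists are described by counts and medians, since limma called 0 of their members between COM and KO. All members of a list come from the same 8 libraries, so counts of signs are a description. Gasdermin C proteins form membrane pores and are made by colonocytes under type 2 cytokines. Gsdmc2 had 234, 236, 265 and 238 FPKM in COM, against 491, 702, 497 and 516 FPKM in KO (-1.16 ± 0.25, adjusted p = 0.153, limma). Gsdmc4 had 500 to 642 FPKM in COM against 832 to 933 FPKM in KO (-0.70 ± 0.25), and Gsdmc3 had 76.9 to 103 FPKM in COM against 103 to 139 FPKM in KO (-0.50 ± 0.24). These 3 close paralogs may share reads, so their single values are uncertain. The levels of Gsdmc2 were 215 to 362 FPKM in WT and 498 to 909 FPKM in DSS, so WT lay nearer to COM and DSS nearer to KO. With the 8 COM and KO libraries fitted alone, Gsdmc2 was the 1 gene called (adjusted p = 0.0482). Of the 6 gasdermins tested, 3 did not overlap and were lower, beside 3.38% of all genes, and 2 had an unadjusted p under 0.05, beside 10.9%. By limma 0 were called, and the median log2 fold change was -0.339, beside 0.006 over all genes. Without any single library the gasdermin median ran from -0.453 to -0.244.

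Ang4, a secreted antimicrobial ribonuclease of crypt and goblet cells, had 84.8, 48.3, 131 and 103 FPKM in COM, against 1009, 1392, 758 and 416 FPKM in KO (-3.23 ± 0.96, adjusted p = 0.238, limma). The highest COM library lay below the lowest KO library by more than the whole range of COM. WT had 77.5 to 311 FPKM, DSS 639 to 995 FPKM and Control 4.70 to 637 FPKM, so that the untreated mice alone spanned most of this range. Retnlb, which encodes the goblet cell hormone RELMβ, had 112, 10.3, 16.8 and 7.71 FPKM in COM, against 124, 847, 219 and 224 FPKM in KO (-3.67 ± 1.35, adjusted p = 0.342). COM 1 reached nearly the level of KO 1, while the other COM libraries lay far below. Pla2g4c, a cytosolic phospholipase A2 gene, had 0.99, 0.82, 0.76 and 0.49 FPKM in COM, against 5.00, 25.7, 12.9 and 12.1 FPKM in KO. It is 1 of these 3 genes and entered through the KO libraries alone, so its values are given as a description with no test. The WT libraries had 0.41, 1.12, 5.02 and 0.43 FPKM, and the DSS libraries had 12.2 to 38.9 FPKM. Itln1, an intelectin that binds microbial sugars, had 1.5 to 1.84 FPKM in COM against 3.60 to 10.2 FPKM in KO (-1.44 ± 0.43). Spink4, a protease inhibitor of goblet cells, had 741, 851, 611 and 877 FPKM in COM, against 1369, 2170, 1175 and 1289 FPKM in KO (-0.93 ± 0.26, adjusted p = 0.218). KO 2, the library with low Hox genes, was the highest of all 8 for each of these genes except Gsdmc3. The median of the goblet and mucus list was -0.28 with all libraries, -0.09 without KO 2 and -0.112 without COM 3.

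**Figure D3:**
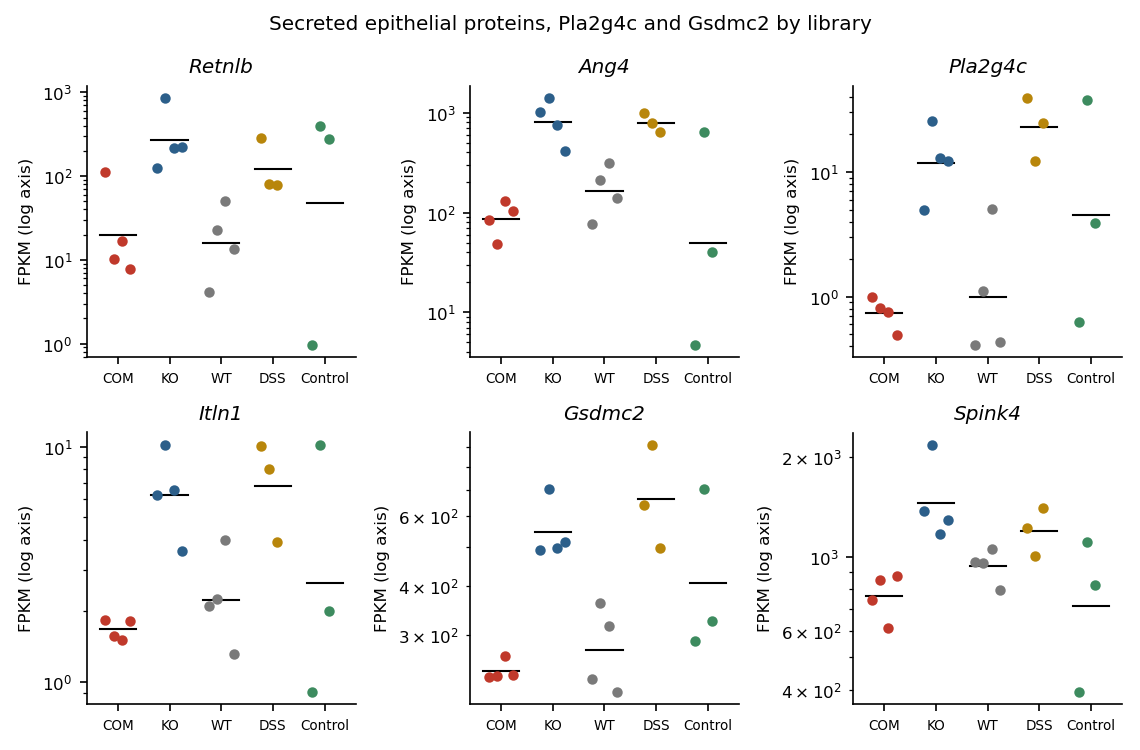
Levels of Retnlb, Ang4, Pla2g4c, Itln1, Gsdmc2 and Spink4 in FPKM on a log axis by library for COM, KO, WT, DSS and Control; the bar is the geometric mean of a group. COM and KO do not overlap for any of them, DSS lies nearer to KO, and Control spans a wide range, from 4.70 to 637 FPKM for Ang4. Pla2g4c entered the comparison through its KO libraries alone.

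The wider lists of secreted proteins were mixed. Of 16 goblet and mucus genes 0 were called by limma, 2 had an unadjusted p under 0.05, 2 did not overlap and were lower (Spink4 and Retnlb), and 7 had positive and 9 negative values. These counts lie near the shares over all genes, 10.9% at that p and 7.46% without overlap. The mucus protein Fcgbp had 437 to 496 FPKM in COM against 489 to 840 FPKM in KO, with overlapping groups. Of 18 antimicrobial genes 0 were called, 3 had an unadjusted p under 0.05, 3 did not overlap and were lower (Ang4, Itln1 and Retnlb), and the median was 0.046. That median had no stable sign, at -0.209 to 0.001 without any single library. In the tuft cell list 9 of 11 tested members had negative values, 5 had an unadjusted p under 0.05, 3 did not overlap and were lower, 0 were called, and the median was -0.389. Rgs13 had 2.87, 2.69, 2.18 and 2.04 FPKM in COM against 3.21, 5.75, 4.25 and 3.17 FPKM in KO. Sh2d6, an adaptor protein gene of tuft cells, had 1.56 to 3.44 FPKM in COM against 3.64 to 8.53 FPKM in KO. Alox5, which starts leukotriene synthesis, had 0.64 to 1.30 FPKM in COM against 1.41 to 3.67 FPKM in KO, and the IL-25 receptor gene Il17rb had 0.81 to 1.33 FPKM in COM against 1.27 to 2.02 FPKM in KO. These are low levels, and KO 2 was highest for all 4. The median of the tuft list without KO 2 was -0.316. The mucosal mast cell proteases Mcpt2 and Mcpt1 had 0.80 to 2.68 and 2.35 to 8.17 FPKM in COM, against 1.76 to 7.16 and 5.29 to 12.4 FPKM in KO, with overlap in both. The mast cell list was mixed, with 2 positive and 3 negative values among 5 tested members. Its largest difference in size was positive, at 0.91, and 0 members were called by limma. In bulk tissue fewer cells of a type and less RNA per cell cannot be told apart.

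Genes of antigen presentation and of interferon responses had positive medians, with COM 2 far above the other 7 libraries. Of 28 interferon-induced genes tested, 27 had positive values, beside 52.0% of all genes. At an unadjusted p under 0.05 lay 2, beside 10.9% of all genes, and 1 did not overlap, beside 7.46%. By limma 0 were called, and the median was 0.384. Without COM 2 the median was -0.021, and without COM 1 it was 0.582. Gbp2, an interferon-induced GTPase gene, had 32.7, 271, 52.0 and 32.9 FPKM in COM, against 28.6, 17.4, 31.1 and 32.1 FPKM in KO (1.21 ± 0.52, adjusted p = 0.414, limma). Ido1, the interferon-induced enzyme that breaks down tryptophan, had 16.1, 168, 11.6 and 9.86 FPKM in COM, against 4.97, 3.91, 7.88 and 7.51 FPKM in KO (1.87 ± 0.66, adjusted p = 0.317). Ido1 was above KO in the other COM libraries too, by a far smaller margin than in COM 2. Ifih1, a sensor of double-stranded RNA, had 31.4, 41.0, 32.1 and 32.8 FPKM in COM, against 24.7, 25.9, 31.5 and 30.1 FPKM in KO, and its groups overlapped by a narrow margin.

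All 12 MHC class I presentation genes had positive values, beside 52.0% of all genes, with a median of 0.376 that was 0.063 without COM 2. B2m, the light chain of class I molecules, had 1546, 3058, 1314 and 1254 FPKM in COM, against 1175, 1037, 1309 and 1185 FPKM in KO. Tapbp, which loads peptides, had 72.4 to 105 FPKM in COM against 67.5 to 72.3 FPKM in KO. The class II list had a median of 0.382, which was 0.076 without COM 2 and 0.225 without KO 2. In COM 2 H2-DMa had 36.8 FPKM against 11.2 to 14.98 FPKM in the other COM libraries and 9.92 to 14.2 FPKM in KO. Of the 12 class I and 11 class II genes 0 were called by limma, and 1 class I gene had an unadjusted p under 0.05.

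T cell and cytotoxic lymphocyte genes had positive values in 14 of 15, beside 52.0% of all genes. At an unadjusted p under 0.05 lay 6 of them, beside 10.9% of all genes. By limma 0 were called, 0 were without overlap, and the median was 0.407 (0.173 without COM 2). The granule proteases Gzma and Gzmb had 13.8, 29.4, 4.22 and 3.48 and 5.26, 19.2, 3.14 and 2.02 FPKM in COM 1 to 4, against 2.33 to 3.98 and 1.61 to 2.56 FPKM in KO. COM 1 and COM 2 were the high libraries for both. The chemokine gene Ccl5 had 19.0 to 60.5 FPKM in COM against 8.95 to 20.3 FPKM in KO, and the interleukin 7 receptor gene Il7r had 1.23 to 2.26 FPKM in COM against 0.65 to 1.68 FPKM in KO. Ccl2, which draws in monocytes, had 1.71, 3.08, 2.90 and 1.49 FPKM in COM, against 0.89, 1.24, 1.11 and 0.41 FPKM in KO, with no overlap (0.77 ± 0.25, adjusted p = 0.282, limma). All 13 macrophage markers had positive values, beside 52.0% of all genes (median 0.291, 0.161 without KO 2). Of these markers 1 had an unadjusted p under 0.05, 0 were without overlap and 0 were called by limma. Ms4a7, 1 of them, had 6.73 to 9.71 FPKM in COM against 5.06 to 9.13 FPKM in KO. Itgam, an integrin of myeloid cells, had 3.42 to 4.13 FPKM in COM against 2.22 to 3.96 FPKM in KO.

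**Figure D4:**
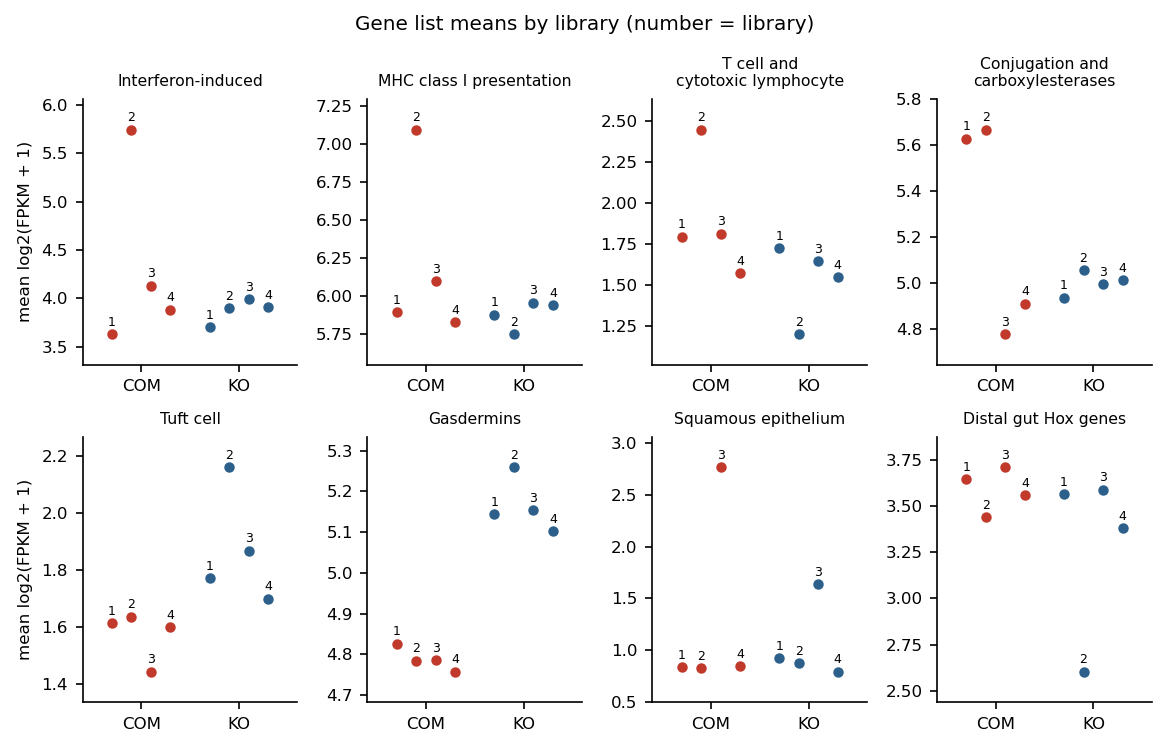
Mean log2(FPKM + 1) over the members of 8 gene lists in each COM and KO library, with the library number above each point. COM 2 stands at 5.75 for interferon-induced genes, COM 3 at 2.77 for squamous genes and KO 2 at 2.60 for Hox genes, while for gasdermins the 4 COM libraries (4.76 to 4.83) lie below the 4 KO libraries (5.10 to 5.26).

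Among absorptive and transport genes some had COM and KO libraries that did not overlap, and others varied widely among the COM libraries. Aqp8, the water channel of surface colonocytes, had 187, 111, 246 and 268 FPKM in COM, against 299, 466, 382 and 415 FPKM in KO (-1.0 ± 0.37, adjusted p = 0.344, limma). Guca2a, the guanylin gene, had 933 to 1401 FPKM in COM against 1556 to 3343 FPKM in KO, with KO 2 highest. Scnn1b, a subunit of the epithelial sodium channel, went the other way, with 6.24, 4.36, 6.46 and 4.98 FPKM in COM against 3.77, 1.10, 3.01 and 3.51 FPKM in KO (0.81 ± 0.24, adjusted p = 0.237). KO 2 was lowest for Scnn1b, and the remaining KO libraries still lay below all of COM. Of 20 electrolyte and water transport genes 1 did not overlap and was higher, beside 4.08% of all genes, and 4 were lower, beside 3.38%. The median of this list was -0.006 (-0.041 to 0.012 without any single library). Car1, a carbonic anhydrase of colonocytes, had 5102, 4136, 1358 and 1148 FPKM in COM, against 1027, 1498, 1267 and 1318 FPKM in KO. Slc10a2, the apical bile acid transporter, had 26.4, 26.6, 5.62 and 5.02 FPKM in COM, against 3.92, 1.13, 4.21 and 3.52 FPKM in KO, and the bilirubin-conjugating Ugt1a1 had 29.6, 42.5, 2.34 and 2.64 FPKM in COM, against 2.94, 6.58, 5.02 and 3.31 FPKM in KO. For these 3 genes COM 1 and COM 2 stood high and COM 3 and COM 4 lay near KO. The Hox list had means of 3.64 and 3.44 in COM 1 and COM 2, beside 3.71 and 3.56 in COM 3 and COM 4. The 15 small intestine genes summed to 87.2, 400, 83.6 and 84 FPKM in COM, against 69.5 to 81.6 FPKM in KO. Whether the position of the tissue in the gut plays a part was not tested. The tight junction list had a median of 0.009 (-0.015 to 0.026 without any single library), with 8 members positive and 8 negative. By limma 0 were called. At an unadjusted p under 0.05, 1 was higher and 1 lower, beside 6.1% and 4.85% of all genes. The higher one was Marveld2, a tricellular junction gene, at 16.6 to 18.1 FPKM in COM against 15.02 to 15.5 FPKM in KO (0.17). The lower one, a claudin gene, had a difference of larger size (-0.55).

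Genes of the circadian clock had small and mostly positive differences. The clock is a feedback loop in which PER and CRY proteins repress their own activators, and NR1D proteins add a further loop. Of 17 core clock genes tested 13 had positive values, beside 52.0% of all genes. At an unadjusted p under 0.05, 4 were higher and 1 lower, beside 6.1% and 4.85% of all genes. By limma 0 were called, and the median was 0.102 (0.07 without KO 2 and 0.158 without KO 1). Nr1d2, a repressor of that further loop, had 25.5, 23.9, 23.1 and 23.7 FPKM in COM, against 18.9, 13.0, 18.1 and 18.7 FPKM in KO (0.48 ± 0.22, adjusted p = 0.452, limma). Per3 had 5.83 to 6.80 FPKM in COM against 2.82 to 5.47 FPKM in KO, and Per1 had 8.07 to 9.62 FPKM in COM against 4.71 to 8.81 FPKM in KO. Cry1 was the main exception, with 4.68 to 6.34 FPKM in COM against 4.46 to 10.9 FPKM in KO. Tef, an output factor, had 19.3, 21.5, 19.7 and 16.9 FPKM in COM, against 13.4, 10.0, 14.9 and 15.7 FPKM in KO, and its relative Dbp had 19.2, 24.3, 20.3 and 14.6 FPKM in COM, against 13.7, 11.4, 12.3 and 20.3 FPKM in KO. For Dbp every COM and KO library lay above every WT library. Its level in WT was 2.03 to 7.66 FPKM, which put COM 2.08 ± 0.28 (adjusted p = 0.0181) and KO 1.65 ± 0.28 (adjusted p = 0.0256) above WT in comparisons that share the WT libraries. Dbp was the 1 gene called between COM and WT (0.00777% of those tested), beside 104 genes (0.808%) called between KO and WT. The third output factor, Hlf, had 1.29 to 2.13 FPKM in COM against 1.12 to 1.6 FPKM in KO.

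Among RNA-binding and chaperone genes some had COM and KO libraries that did not overlap, as did 7.46% of all genes. Hspa8, the constitutive HSC70 chaperone gene, had 1383, 1564, 1309 and 1601 FPKM in COM, against 1121, 1158, 1196 and 1210.0 FPKM in KO (0.32 ± 0.11, adjusted p = 0.304, limma). Chordc1, also in the heat shock list, had 28.8 to 36.6 FPKM in COM against 21.3 to 26.5 FPKM in KO, and Dnajb4 had 11.3 to 12.9 FPKM in COM against 8.92 to 11.8 FPKM in KO. The small heat shock protein gene Cryab had 19.4 to 21.02 FPKM in COM against 23.2 to 27.0 FPKM in KO. Of 18 heat shock genes 2 did not overlap and were higher in COM, beside 4.08% of all genes, 1 did not overlap and was lower, beside 3.38%, and the median was 0.111 (0.02 without COM 2). In the endoplasmic reticulum stress list, Dnajb9 had 40.6 to 49.6 FPKM in COM against 32.7 to 35.8 FPKM in KO and Herpud1 had 68.9 to 86.8 FPKM in COM against 57.4 to 65.5 FPKM in KO, while Ddit3 (CHOP) had 14.3 to 16.1 FPKM in COM against 11.2 to 14.6 FPKM in KO with overlap. Atf4, the transcription factor of the integrated stress response, had 82.4 to 103 FPKM in COM against 96.3 to 117 FPKM in KO, and the secreted factor gene Manf had 45.1 to 60.3 FPKM in COM against 54.5 to 76.4 FPKM in KO, both with overlap. Of the 14 members 9 had negative values, where 52.0% of all genes were positive. At an unadjusted p under 0.05, 3 were higher and 3 lower, beside 6.1% and 4.85% of all genes. By limma 0 were called, and the median was -0.071 (-0.135 to -0.016 without any single library). Of 16 splicing regulators 3 did not overlap and were higher and 3 were lower. Tra2b and Tra2a had 82.2 to 87.2 and 60.3 to 67.0 FPKM in COM, against 68.3 to 80.2 and 47.6 to 59.0 FPKM in KO. Rsrp1 had 121 to 134 FPKM in COM against 135 to 167 FPKM in KO, lower in COM like Srsf5. Cirbp, a cold-inducible RNA-binding protein gene, had 15.4 to 19.8 FPKM in COM against 20.4 to 25.5 FPKM in KO (-0.36 ± 0.14, adjusted p = 0.370). Among immediate early genes, which respond within minutes to stimulation or handling of tissue, Atf3 had 24.6, 21.6, 23.4 and 22.7 FPKM in COM, against 43.4, 27.0, 30.2 and 33.5 FPKM in KO (-0.50 ± 0.14, adjusted p = 0.237), and Nr4a1 had 5.66 to 12.3 FPKM in COM against 8.30 to 21.02 FPKM in KO with overlap. The list had 12 of 15 members negative, where 52.0% of all genes were positive, and 2 without overlap and lower, beside 3.38%. By limma 0 were called, and the median was -0.133 (-0.082 without COM 2 and -0.085 without KO 4).

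Sterol genes had mostly negative differences. Cells short of sterols switch on the genes for cholesterol synthesis together through SREBP2. Insig1, the sterol-sensing brake on SREBP, had 37.1, 38.1, 41.0 and 32.7 FPKM in COM, against 66.1, 64.8, 51.6 and 53.6 FPKM in KO (-0.65 ± 0.23, adjusted p = 0.314, limma). All COM libraries lay below all KO libraries. Mvd, an enzyme gene of the mevalonate pathway, had 19.2 to 27.1 FPKM in COM against 24.5 to 36.9 FPKM in KO, and Dhcr7, an enzyme gene of the last steps, had 56.5 to 63.0 FPKM in COM against 63.2 to 71.2 FPKM in KO. Of 21 genes of the list 15 were negative, 4 did not overlap and were lower, beside 3.38% of all genes, and 5 had an unadjusted p under 0.05, beside 10.9%. By limma 0 were called, with a median of -0.151 (-0.065 without KO 2). Insig1 had 47.1 to 60.4 FPKM in WT, close to KO, and 34.7 to 50.5 FPKM in DSS, closer to COM.

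Ribosomal protein and respiratory chain genes had slightly negative medians, and across all genes the difference varied with transcript length and GC content. Of 25 ribosomal protein genes 21 were negative, 6 did not overlap and were lower, beside 3.38% of all genes, and 3 had an unadjusted p under 0.05, beside 10.9%. By limma 0 were called, and the median was -0.082. Rpl38 had 1034 to 1121 FPKM in COM against 1256 to 1354 FPKM in KO, Rplp2 had 508 to 712 FPKM in COM against 733 to 830.2 FPKM in KO, Rpl27 had 255 to 277 FPKM in COM against 292 to 328 FPKM in KO, and Rplp1 had 1191 to 1293 FPKM in COM against 1309 to 1418 FPKM in KO. Of 23 nuclear respiratory chain genes 19 were negative, 3 did not overlap and were lower, beside the same 3.38%, and 4 had an unadjusted p under 0.05, beside 10.9%. By limma 0 were called, and the median was -0.107 (-0.047 without KO 2). Atp5o, an ATP synthase subunit gene, had 302 to 351 FPKM in COM against 376 to 420 FPKM in KO, Cox6c had 498 to 555 FPKM in COM against 544 to 701 FPKM in KO, and Uqcrq had 63.4 to 72.6 FPKM in COM against 70.1 to 110.3 FPKM in KO. Across 12743 genes with a gene model the log2 fold change correlated with transcript length (Spearman 0.226) and with GC content (-0.304), as a description, since all genes come from the same 8 libraries. The median was -0.053 in the fifth of genes with the shortest transcripts and 0.048 in the fifth with the longest, and 0.068 in the fifth lowest in GC and -0.052 in the fifth highest. Each library's deviation correlated with GC between -0.193 and -0.067 in COM and between 0.07 and 0.326 in KO. With both trends removed the ribosomal median was -0.026 and the respiratory chain median -0.061, whereas the tuft, gasdermin and cholesterol medians were -0.383, -0.4 and -0.176.

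Genes of purine and histidine metabolism, pathways that bacteria share with their host, gave 0 calls by limma among 15 of purine synthesis and salvage, 10 of purine breakdown, 17 of extracellular nucleotide and adenosine signalling and 9 of histidine, histamine and carnosine metabolism. Their medians were -0.023, 0.026, 0.0 and 0.041, and all 4 stayed between -0.065 and 0.092 without any single library. At an unadjusted p under 0.05 lay 1 synthesis gene and 1 extracellular gene. Impdh1, which makes guanine nucleotides, had 5.42 to 7.88 FPKM in COM against 7.5 to 11.5 FPKM in KO (-0.40 ± 0.16, adjusted p = 0.363, limma), and Enpp1, which hydrolyses extracellular ATP, had 4.04 to 4.69 FPKM in COM against 4.54 to 5.42 FPKM in KO. Paics, a synthesis enzyme gene, had 49.2 to 62.7 FPKM in COM against 37.9 to 56.8 FPKM in KO. Guanine deaminase (Gda) had 38.5 to 47.4 FPKM in COM against 29.3 to 40.1 FPKM in KO. Xanthine dehydrogenase (Xdh), which makes uric acid, had 31.9, 65.7, 34.4 and 29.5 FPKM in COM, against 29.5, 30.7, 29.1 and 33.1 FPKM in KO, and urate oxidase (Uox) had 0.65, 20.2, 2.15 and 0.98 FPKM in COM, against 0.76 to 1.34 FPKM in KO. Both were high in COM 2 alone. P2rx4, an ATP-gated channel, had 48.7 to 53.9 FPKM in COM against 51.2 to 59.8 FPKM in KO. Aoc1, the histamine-degrading diamine oxidase, had 145, 113, 162 and 192 FPKM in COM, against 155, 45.8, 125 and 120 FPKM in KO (0.56 ± 0.33, adjusted p = 0.564), with KO 2 lowest. Hnmt, the other histamine-degrading enzyme, had 1.70 to 2.50 FPKM in COM against 1.44 to 2.24 FPKM in KO, and Aldh3a2 had 32.4 to 38.0 FPKM in COM against 32.2 to 37.0 FPKM in KO.

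**Figure D5:**
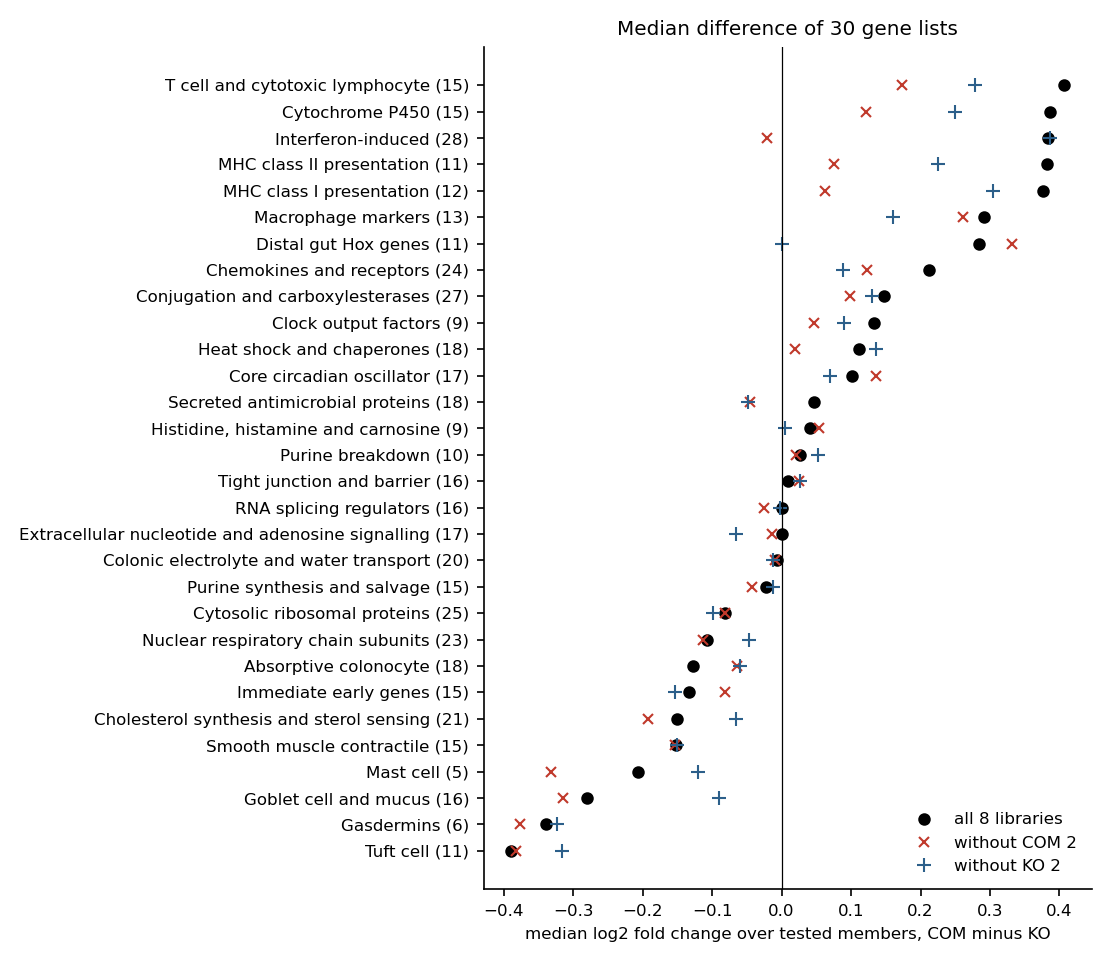
Median log2 fold change (COM minus KO, x axis) over the tested members of 30 gene lists, with the number of tested members in brackets, for all 8 libraries and without COM 2 or KO 2. The interferon median moves to -0.021 without COM 2 and the Hox median to 0.001 without KO 2, while the gasdermin and tuft medians stay at -0.316 or below in these fits. Without COM 3, not plotted here, the gasdermin median was -0.244.

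Detoxifying enzymes and gut hormones gave few further differences. Cyp27a1, a sterol hydroxylase gene, had 20.9 to 22.5 FPKM in COM against 5.37 to 19.6 FPKM in KO, where KO 2 was lowest. Cyp3a13 had 50.4 to 60.0 FPKM in COM against 38.3 to 49.4 FPKM in KO without overlap, and Cyp4v3 had 8.51 to 10.4 FPKM in COM against 3.75 to 9.15 FPKM in KO with overlap. The cytochrome P450 list had a median of 0.387 that was 0.122 without COM 2 and 0.249 without KO 2. Sult1d1, a sulfotransferase gene, had 95.4 to 147 FPKM in COM against 70.0 to 93.3 FPKM in KO, with COM 1 highest, and Ces2b had 4.6 to 6.67 FPKM in COM against 3.53 to 4.97 FPKM in KO. The hormone genes Cck and Gcg were lower in every COM library than in any KO library. They had 1.59 to 1.92 and 25.2 to 37.77 FPKM in COM, against 1.99 to 8.74 and 37.78 to 53.5 FPKM in KO. Most of the enteroendocrine list went the other way, with 10 of 13 tested members positive, beside 52.0% of all genes. Only these 2 did not overlap, beside 3.38% of all genes without overlap and lower, and 0 were called by limma. The list median was 0.118 (0.067 without KO 2 and 0.184 without COM 1). In Gcg the nearest COM and KO libraries differed by 0.01 FPKM.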

How the data were processed

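RNA of whole colon was sequenced on a DNBSEQ platform, per the labels' protocols. The values are FPKM as deposited by the authors, in a single table of 18349 genes and 18 libraries, and the submitters' processing notes name mm10. The sources used here do not give the aligner, the program behind the FPKM or the number of reads, so the depth is unknown and no counting interval is given. COM libraries summed to 518101 to 522919 FPKM and KO libraries to 526797 to 531907 FPKM, and no 2 libraries shared more than 0.289% of values above 10 FPKM.

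Gene identifiers were matched to RefSeq GRCm38.p6 symbols (18230 matched, 119 not). Values were tested as log2(FPKM + 1), a scale that understates changes of low genes, in 1 limma 3.58.1 model (R 4.3.3) of all 18 libraries in 5 groups, with a mean-variance trend, two-sided, and Benjamini-Hochberg adjustment over 12877 genes. The model was checked on simulated data with 200 changed genes. Fold changes carry the SE of the fit.

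Genes were named by a rule: called, without overlap, averaging 5 FPKM or more in the group where the gene was higher, up to 15 per direction, filled to 8 by the smallest p, leaving out predicted genes. Up to 5 members were named from each of 57 gene lists, called ones first and then by the smallest p. The genes, lists and tests were chosen with earlier results of these data known. Members may stand in several lists, and some genes that this rule names are not reported here. Alternatives changed the pseudocount, filter, scaling, libraries and model.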

Additional observations from a re-analysis of the deposited data

Results flagged for a closer look

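In 292 checks of a group of 4 libraries (111 genes named and 35 list means, in COM and in KO) 28 had 1 library far from the other 3. Chance flags about 1 in 20 such groups. COM 2 was the library in 10 of them, COM 3 in 5, KO 2 in 4, KO 3 in 3, COM 1, COM 4 and KO 1 in 2 each and KO 4 in 0.

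COM 2 stood high for interferon and antigen presentation genes: Ido1 at 168 FPKM (9.86 to 16.1 in the other COM libraries), Gbp2 at 271 FPKM (32.7 to 52.0), Ifih1 at 41.0 FPKM (31.4 to 32.8), B2m at 3058 FPKM (1254 to 1546) and H2-DMa at 36.8 FPKM (11.2 to 14.98). It also stood high for Xdh at 65.7 FPKM, for Uox at 20.2 FPKM and in mean log2(FPKM + 1) of the purine breakdown list (4.12), the histidine list (2.28) and the small intestine list (2.94). COM 3 stood high in the squamous list (2.77), Gsdmc2 (265 FPKM) and Cyp27a1 (22.5 FPKM), and low for Trmt1l (21.8 FPKM) and Alox5 (0.64 FPKM). COM 1 stood high for Retnlb (112 FPKM, against 7.71 to 16.8 in the other COM libraries) and low for Rpl27 (255 FPKM), and COM 4 stood low for Guca2a (933 FPKM) and high in the ribosomal list (9.27).

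Among the KO libraries, KO 2 stood high for Retnlb (847 FPKM, against 124 to 224 in the others), Gsdmc2 (702 FPKM, against 491 to 516) and Mcpt1 (12.4 FPKM), and low for Nr1d2 (13.0 FPKM). KO 3 stood high in the acinar list (7.84, against 1.16 to 1.28) with Pnliprp2 at 34.8 FPKM, and in the squamous list (1.64). KO 1 stood high for Gzmb (2.56 FPKM) and low for Tra2a (47.6 FPKM).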

How the results depend on the processing

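The number of called genes, 4, was small and depended on the libraries more than on the scale. It was 4 with a pseudocount of 0.1, with no filter, with a filter of 5 FPKM, with 1 FPKM in 3 of 18 libraries and with the COM, KO and WT libraries alone, 3 after rescaling to TPM, 2 with quantile normalization, 2 without the mean-variance trend, 1 with the COM and KO libraries alone and 1 with the length and GC trend removed. It was 0 at a log2 fold change of at least 1 in size, and 0 with KO 2, KO 3 and COM 3 left out together. Leaving out 1 library gave 0 to 2. With the replicate number as a block it was 0. Deviations of same-numbered COM and KO libraries correlated at -0.28, 0.224, 0.23 and 0.288. COM 2, COM 3 and COM 4 each correlated best with the KO library of their own number, and COM 1 with KO 2 (0.292). Whether the numbers mark pairs cannot be told from these values. The COM, KO and WT libraries alone and the length and GC correction were chosen after seeing the data. With the COM and KO libraries alone 0 of the 4 genes remained called, and with WT added 1 did, Banp.

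Banp was called in 14 of 20 other fits (log2 fold change 0.77 to 0.99), Zfp414 in 7 (-0.52 to -0.38), and Fxr1 and Ints8 in 5 each. None of the 111 genes named changed sign in these fits, which reuse the libraries from which the genes were picked. A stable sign is therefore no independent support. With no filter Stxbp3 was called (adjusted p = 0.0367, limma) and Ints8 was not (0.0507). The cause of these losses was not tested.

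With 4 libraries per group and unknown depth, differences as large as those of Retnlb (-3.67) and Ang4 (-3.23) did not pass the adjusted threshold. The model takes the spread of a gene from all 5 groups, so their SE also holds the spread within WT, DSS and Control. Neither gene was called with the COM and KO libraries fitted alone. The part of the length and GC trend and of the libraries that stand apart in single results was not tested beyond these fits.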

Other observations

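Erythroid genes had positive differences in all 5 tested members, beside 52.0% of all genes, and 0 were called by limma or were without overlap. Their median log2 fold change was 0.54, which was 0.236 without KO 2, 0.24 without COM 2, 0.343 without COM 1 and 0.875 without COM 4. Their sums were 590, 809, 282 and 202 FPKM in COM, against 453, 129, 404 and 222 FPKM in KO, so libraries of both groups lay at either end. Adipocyte genes summed to 269, 490, 169 and 108 FPKM in COM, against 258, 170, 275 and 101 FPKM in KO. Smooth muscle contractile genes had negative values in 14 of 15, where 52.0% of all genes were positive. Of them 0 were called by limma, 0 were without overlap and 1 had an unadjusted p under 0.05, beside 10.9% of all genes. Their median was -0.152, which was -0.081 without COM 4, -0.099 without KO 3 and -0.23 without COM 3. Cell cycle genes had negative values in 18 of 21, where 52.0% of all genes were positive. Of them 0 were called by limma, 0 had an unadjusted p under 0.05 and 1 did not overlap, beside 7.46% of all genes. Their median was -0.076, which was -0.154 to -0.032 without any single library, KO 3 and KO 2 giving these ends. The 6 neutrophil markers tested had a median of 0.146, which was -0.149 without COM 3, 0.014 without KO 2 and 0.28 without COM 1.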
